A study of Mus musculus with 12 samples.

Results

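The genes described here are the CCAAT/enhancer-binding protein (C/EBP) genes *Cebpa*, *Cebpb*, *Cebpd*, *Cebpe* and *Cebpg* together with *Gfi1*, 6 genes chosen by symbol because they encode transcription factors of the myeloid lineage. All 6 had a row in each deposited table, among 17445 rows for lymphoid-primed multipotent progenitors (LMPPs), 16821 rows for CD115-CDPs and 16896 rows for bone marrow (BM) pDCs. LMPPs are the Flt3+CD34+ part of the Lin-Sca-1+c-Kit+ progenitor gate. CD115-CDPs are the common dendritic cell precursors that lack surface CD115, and pDCs are the plasmacytoid dendritic cells. The study sequenced total RNA of these cells to ask how loss of histone deacetylase 3 changes them. Each cell type has 2 control libraries from Hdac3 fl/fl mice and 2 HDAC3-deficient libraries (HDAC3-KO) from Hdac3 fl/fl mice that also carry Rosa26-CreERT2, 12 libraries in all. Both genotypes are on the C57BL/6 background, carry the floxed allele and received tamoxifen for 5 days, and cells were sorted 7 days after the last dose. The Rosa26 locus drives Cre in nearly all cells, so deletion was not limited to the dendritic cell lineage. The age of the mice is not given in the labels, and nothing states that the libraries of a group came from separate mice, so the p-values measure the spread between libraries, which may be technical.

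C/EBP proteins are basic leucine zipper factors that bind DNA as dimers. C/EBPα starts the granulocyte and monocyte program in multipotent progenitors, C/EBPε drives the late steps of granulocyte maturation, and C/EBPβ and C/EBPδ are induced by inflammatory signals and by growth factors in mature myeloid cells. C/EBPγ lacks the usual activation domain and forms dimers with the other family members. GFI1 is a zinc finger repressor that recruits histone demethylase and deacetylase complexes and favours granulocytes over monocytes.

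The DNA-binding basic region is the part of the coding sequence that C/EBP genes share, and it is shown for *Cebpa*, *Cebpb*, *Cebpe* and *Cebpg* because reads from such a stretch could be assigned to more than a single family member. The window below holds the 60 coding bases of *Cebpa* that were most alike across these 4 genes, with the best ungapped in-frame match in each of the other genes. All sequences were read from GENCODE vM21 transcripts (build GRCm38) and are exonic and coding, *Cebpa* at chr7:35120271-35120330 on the plus strand, *Cebpb* at chr2:167689691-167689750 on the plus strand, *Cebpe* at chr14:54710710-54710769 on the minus strand and *Cebpg* at chr7:35050588-35050647 on the minus strand. Capitals mark the 35 bases that are the same in all 4 genes.
Cebpa: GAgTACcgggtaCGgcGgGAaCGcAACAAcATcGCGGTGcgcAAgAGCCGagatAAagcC
Cebpb: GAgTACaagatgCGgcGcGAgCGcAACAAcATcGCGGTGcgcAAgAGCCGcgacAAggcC
Cebpe: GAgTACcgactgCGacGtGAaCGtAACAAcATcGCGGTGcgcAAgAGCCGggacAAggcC
Cebpg: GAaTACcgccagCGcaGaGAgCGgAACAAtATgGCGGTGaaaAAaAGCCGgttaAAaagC

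Each pair among *Cebpa*, *Cebpb* and *Cebpe* shared 51 of 60 bases in this window, and *Cebpg* stood furthest from *Cebpb*, at 37 of 60 bases. The longest identical run in the coding sequences was 29 bases, between *Cebpa* and *Cebpb*, followed by 26 bases between *Cebpe* and either of them. *Cebpg* shared at most 10 bases in a row with any of the other 3 genes.

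The genes lie on separate chromosomes except for *Cebpa* and *Cebpg*, which are neighbours on chromosome 7. In GRCm38.p6, *Cebpa* (NCBI Gene 12606) spans chr7:35119293-35121928, *Cebpg* (12611) chr7:35046422-35056566, *Cebpb* (12608) chr2:167688915-167690432, *Cebpd* (12609) chr16:15887286-15889545, *Cebpe* (110794) chr14:54710363-54712174 and *Gfi1* (14581) chr5:107716655-107725805. *Cebpd* shares 562 of its 3746 exonic bases in GENCODE with *Spidr*, a DNA repair gene on the opposite strand. *Cebpb* shares 312 of 1504 exonic bases with *Tmem189* in the same way. The span of *Cebpd* given above is 2260 bases, and whether the bases shared with *Spidr* lie within it was not checked. None of the sources used here states whether strand was used in counting, so reads in these overlaps cannot be assigned with certainty.

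RefSeq promoter windows, 250 bases before to 50 after the gene start, were on hand for *Cebpa*, *Cebpb*, *Cebpg* and *Gfi1*. The C/EBP motif TTGCNNAA, searched on both strands, matched in 1 of the 2 *Gfi1* windows and in no window of *Cebpa*, *Cebpb* or *Cebpg*, and 10.8% of 32851 promoter windows held it. The *Cebpg* window held 2 matches to CCAAT, a motif found in 37.4% of all windows. The GFI1 motif TAAATCAC, present in 0.578% of all windows, was in none of them.

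*Hdac3* itself was read first as a check on the labels. In LMPPs it was at 56.5 and 66.4 FPKM (fragments per kilobase of transcript, scaled to the mapped fragments of the library, hence a level per length) in the controls and at 16.9 and 9.87 FPKM in the HDAC3-deficient libraries. In CD115-CDPs it was at 58.2 and 39.6 FPKM against 12.1 and 0.93 FPKM, and in BM pDCs at 38.9 and 37.8 FPKM against 15.6 and 15.9 FPKM. Every deficient library thus lay under every control of its cell type. The fall passed the test in LMPPs (log2 difference −2.20, SE 0.22, limma, adjusted p = 1.1e-05) and in BM pDCs (−1.15, SE 0.090, edgeR, adjusted p = 3.1e-05), and the CD115-CDP difference of −3.52 (SE 1.02; limma, adjusted p = 0.47) missed the threshold. Only exon 3 is floxed, so transcripts without it still give reads.

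LMPPs and BM pDCs carried the markers of their labels. The summed level of 5 LMPP markers was 1233 to 1686 FPKM in LMPPs, and that of 6 pDC markers was 4314 to 8160 FPKM in BM pDCs. CD115-CDPs, gated as Flt3+ with intermediate CD117 (c-Kit), had *Flt3* at 352 and 310 FPKM in controls and at 333 and 217 FPKM in deficient libraries. *Kit* was at 17.65 and 21.22 FPKM in these controls and at 34.31 and 16.74 FPKM in these deficient libraries. In CD115-CDPs the pDC markers summed to 2949 and 2244 FPKM in the controls and to 1130 and 506 FPKM in the deficient libraries. *Csf1r*, whose protein is CD115, was at 139 and 95.3 FPKM in the CD115-CDP controls and at 64.7 and 21.5 FPKM in the deficient libraries, so cells sorted as lacking the surface protein held its transcript. The second deficient CD115-CDP library stood apart. Only 11288 of its genes had any signal, where the remaining CD115-CDP libraries held 13684 to 15173, and correlated at r = 0.871 with the other deficient library over log2 levels of the tested genes, whereas the CD115-CDP controls correlated at r = 0.977 with each other.

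The deposited tables were each normalized separately, so levels are set side by side across cell types without a test. LMPPs and CD115-CDPs were lysed in a low-input buffer and BM pDCs in Trizol. Preparation therefore cannot be told apart from cell type where BM pDCs are set against the progenitors. *Cebpa* and *Cebpb* belonged to the more highly expressed genes of BM pDCs, each at a higher level than 85.8% to 85.9% of the genes in the control pDC table, by mean FPKM. *Cebpa* in BM pDCs measured 35.8 ± 0.198 FPKM in controls (mean ± SD, n = 2) and 29.0 ± 0.969 FPKM in deficient cells. In the progenitors it was lower, at 4.75 ± 1.66 FPKM in LMPP controls, 4.69 ± 0.636 FPKM in deficient CD115-CDPs, 4.04 ± 0.240 FPKM in deficient LMPPs and 3.34 ± 0.00707 FPKM in CD115-CDP controls. The LMPP control range covered the means of the other progenitor groups except that of the CD115-CDP controls.

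*Cebpb* had the widest range of levels. It was at 36.0 ± 3.17 FPKM in control and 25.3 ± 2.65 FPKM in deficient BM pDCs, and at 0.11 to 1.35 FPKM in the LMPP and CD115-CDP libraries. *Cebpg* was also highest in BM pDCs, at 15.9 ± 1.34 FPKM in deficient and 14.3 ± 0.219 FPKM in control cells. It was at 7.45 ± 6.54 FPKM in deficient CD115-CDPs and at a mean of 6.63 FPKM (5.21 and 8.04) in control CD115-CDPs, whose ranges overlapped, and at 3.55 ± 0.905 and 4.04 ± 0.820 FPKM in deficient and control LMPPs, whose ranges also overlapped.

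*Cebpd* ranked by genotype as much as by cell type. The 3 control groups came first, with BM pDCs at 8.74 ± 0.318 FPKM, CD115-CDPs at 7.97 ± 5.69 FPKM and LMPPs at 3.72 ± 0.552 FPKM, each overlapping its neighbour in that order. The deficient groups followed, with BM pDCs at 3.65 ± 0.163 FPKM, CD115-CDPs at 2.42 ± 1.41 FPKM and LMPPs at 1.29 ± 0.127 FPKM. Control LMPPs and deficient BM pDCs overlapped, and the deficient groups were separate from each other. *Cebpe* and *Gfi1* were highest in control LMPPs, at 1.87 ± 0.368 and 2.03 ± 0.255 FPKM, and the means of their other groups ran from 0.490 to 1.18 FPKM and from 0.350 to 1.69 FPKM.

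**Figure D1:**
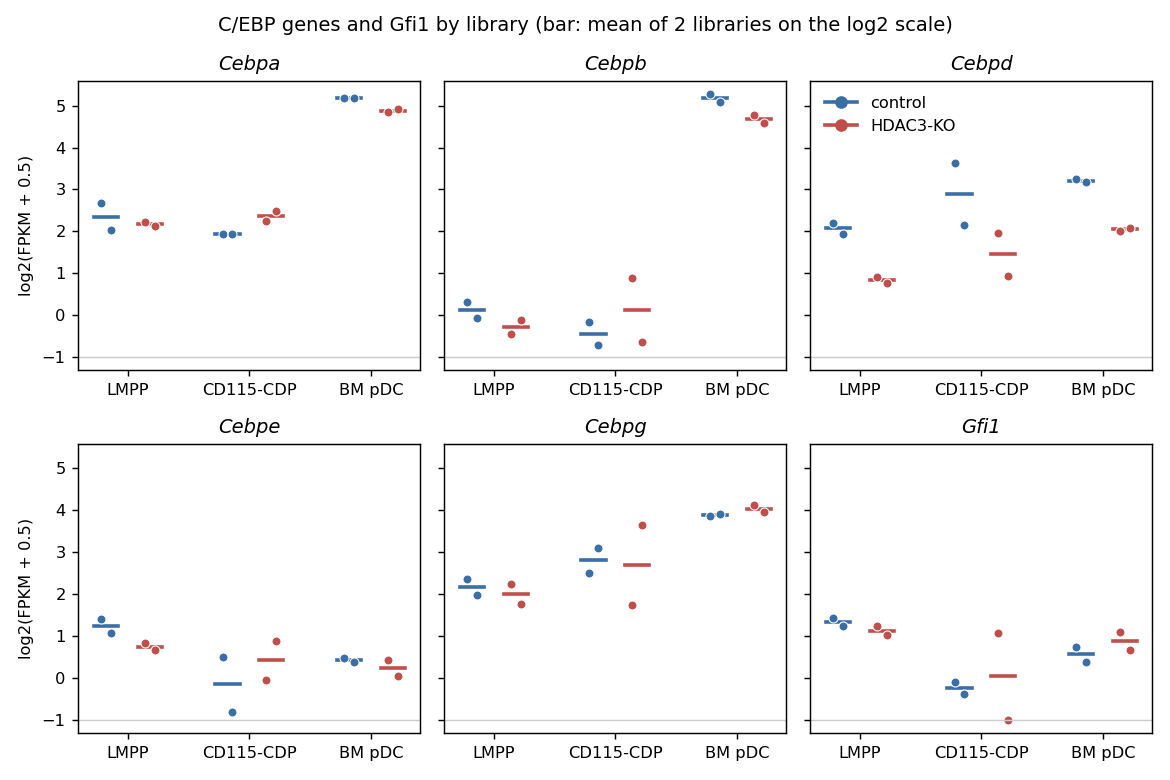
Level of each gene in each library, as log2(FPKM + 0.5) on the vertical axis, for controls (blue) and HDAC3-KO (red) in the 3 cell types, where points are libraries, bars are the mean of 2 libraries on the log2 scale, and the grey line marks 0 FPKM. *Cebpa* and *Cebpb* sit highest in BM pDCs, and the red *Cebpd* points lie under the blue ones in all 3 cell types.

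In LMPPs, *Cebpd* was the member that fell. It was at 4.11 and 3.33 FPKM in the controls and at 1.38 and 1.20 FPKM in the deficient ones. The groups were well apart, with the higher deficient library under the lower control. The controls were 2.88-fold higher by mean FPKM, and the log2 difference was −1.23 on the log2(FPKM + 0.5) scale (95% interval −1.85 to −0.62, SE 0.29, limma, adjusted p = 0.0059). Of the 11146 genes tested, 5.48% had a lower difference. Median-ratio scaling, which brought the median of all genes from −0.23 to −0.0021, left a difference of −1.03 (limma, adjusted p = 0.022). The call was lost under quantile normalization, where the difference was −0.75 (limma, adjusted p = 0.072). It was also lost without control library 1, where the difference was −1.10 in a fit that leaves 1 control.

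Of the 6 genes, 5 had at least 1 FPKM in 2 or more of the 4 LMPP libraries and were tested, with 1 lower, 0 higher and 4 without a call. Over all tested genes, 19.8% were called lower and 4.38% higher in deficient LMPPs, and the median difference was −0.23. Both deficient libraries lay under both controls for 4 of the 6 members, the untested *Cebpb* among them, where 48.2% of all tested genes did so. They lay above both controls for 0 members and 17.6% of all tested genes.

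*Cebpe* was at 2.13 and 1.61 FPKM in control and at 1.27 and 1.08 FPKM in deficient LMPPs. The groups did not overlap, and limma gave a difference of −0.49 without a call (95% interval −1.15 to 0.16, adjusted p = 0.25). *Gfi1* was at 2.21 and 1.85 FPKM against 1.84 and 1.54 FPKM, a gap of 0.01 FPKM between the nearest libraries of the groups, with a difference of −0.21 (95% interval −0.84 to 0.42). *Cebpa*, at 5.92 and 3.57 FPKM against 4.21 and 3.87 FPKM, overlapped between groups, with a difference of −0.17 (95% interval −0.76 to 0.42). *Cebpg*, at 4.62 and 3.46 FPKM against 4.19 and 2.91 FPKM, overlapped as well, at −0.17 (95% interval −0.76 to 0.42). These intervals are too wide to show that the genes were alike in both genotypes. The small differences also turned positive under another scaling, to 0.053 for *Cebpa* and 0.050 for *Cebpg* under median-ratio scaling and to 0.016 for *Cebpe* and 0.29 for *Gfi1* under quantile normalization. *Cebpb*, at 0.74 and 0.46 FPKM against 0.23 and 0.43 FPKM, was not tested because of its low level.

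Transcripts of other cell types moved with *Cebpd* in LMPPs, where 19.8% of all tested genes were called lower and 4.38% higher. The summed level of 8 neutrophil granule and calprotectin genes was 635 and 444 FPKM in the controls and 52.3 and 26.2 FPKM in the deficient libraries. Of these 8 genes, 5 were called lower, 0 were higher, and none was under 1 FPKM in every library. *Camp*, a secondary granule peptide of neutrophils, was at 65.9 and 38.8 FPKM in controls and at 4.01 and 1.69 FPKM in deficient LMPPs (log2 difference −4.02, SE 0.39, limma, adjusted p = 5.0e-04). The 5 mast cell and basophil markers summed to 181 and 136 FPKM against 57.2 and 43.0 FPKM, with 3 called lower. The first control library had 6394 FPKM of erythroid markers, against 50.9 to 150.0 FPKM in the other 3, and it is the library without which *Cebpd* was not called. The granulocyte-monocyte progenitor markers went the other way, from 2291 and 2738 FPKM to 4660 and 5582 FPKM, with 3 of 5 called higher. Of the monocyte markers 1 of 5 was called lower, and of the B cell markers 1 of 2 tested was lower. Of the T and NK cell markers only *Nkg7*, a granule protein of cytotoxic cells, was tested, and it was higher, while the other 3 in the table were under 1 FPKM in every library. The part of these transcripts in the *Cebpd* difference was not tested, and fewer cells of a type cannot be told apart from less RNA per cell in such bulk samples.

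In CD115-CDPs, *Cebpd* again had both deficient libraries under both controls. It was at 11.99 and 3.95 FPKM in the controls and at 3.41 and 1.42 FPKM in the deficient libraries. The controls differed from each other by more than the nearest libraries of the groups did. The difference of −1.44 (95% interval −3.20 to 0.31, SE 0.70) missed the threshold by limma (adjusted p = 0.60). Without the deficient library that stood apart it was −0.93, and without the other deficient library it was −1.96. Each of these fits leaves 1 deficient library, so the spread comes from the controls and no call is drawn from it. Without the first control the difference was −0.70, and without the second it was −2.19.

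Only 3 members passed the filter in CD115-CDPs, and 0 of them were called in either direction. The same was true of the table as a whole, with 0% of 10832 genes called higher and 0% called lower by limma, whereas 320 genes were higher and 618 lower at an unadjusted p under 0.05. Both deficient libraries lay above both controls for 1 of 6 members and 15.2% of all tested genes, and under them for 1 of 6 members and 28.4% of all tested genes. The 6 members include those that did not pass the filter, whereas the shares cover tested genes only.

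*Cebpa* was the gene with both deficient libraries above the controls. It was at 3.34 and 3.33 FPKM in control and at 4.24 and 5.14 FPKM in deficient CD115-CDPs. The groups did not overlap, and limma gave a difference of 0.43 without a call (95% interval −0.68 to 1.54, adjusted p = 0.76). *Cebpg* was at 5.21 and 8.04 FPKM in the controls and at 2.82 and 12.07 FPKM in the deficient libraries, so the deficient pair enclosed the controls. Its difference of −0.11 became 0.85 without the first deficient library and −1.07 without the second, so its direction depended on a single deficient library.

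The other 3 genes were near the limit of detection in CD115-CDPs. *Cebpb* was at 0.39 and 0.11 FPKM in the controls and at 1.35 and 0.14 FPKM in the deficient libraries. *Cebpe* was at 0.91 and 0.07 FPKM against 0.47 and 1.35 FPKM, and *Gfi1* at 0.44 and 0.26 FPKM against 1.60 and 0 FPKM. In each case the groups overlapped. With the value of a single read estimated from the low values of the table, these levels stand for about 2 to 30 reads of *Cebpb*, 1 to 24 of *Cebpe* and 0 to 60 of *Gfi1*. The neutrophil genes summed to 580 and 217 FPKM in the controls and to 229 and 127 FPKM in the deficient CD115-CDPs, with 0 of 8 called. The granulocyte-monocyte progenitor markers summed to 1057 and 1243 FPKM in the controls and to 3520 and 2475 FPKM in the deficient libraries, which lay above both controls for 5 of 5 genes. The cDC markers summed to 48.4 and 41.1 FPKM against 10.7 and 15.8 FPKM, with the deficient libraries under both controls for 4 of 4 genes. Among them, *Xcr1* was at 0.14 and 0.52 FPKM against 0.06 and 0.02 FPKM and was not tested. Over all tested genes of this cell type, 15.2% lay above both controls and 28.4% under both. By limma 0 genes of either list were called, and the part of these transcripts in the members' values was not tested.

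**Figure D2:**
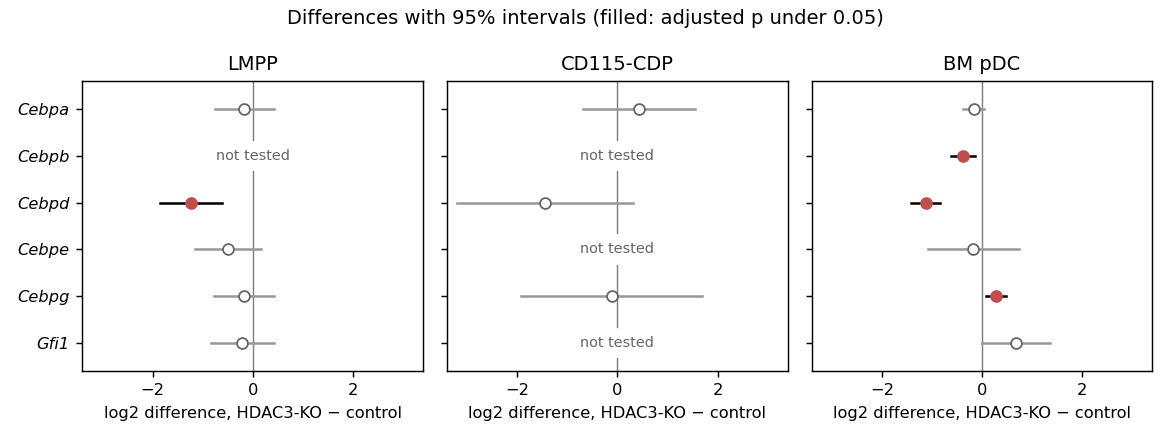
Difference between HDAC3-KO and control on the log2 scale (horizontal axis) for each gene and cell type, from limma on log2(FPKM + 0.5) in LMPPs and CD115-CDPs and from edgeR on counts in BM pDCs, with points for the estimate, lines for the 95% interval and filled points for an adjusted p under 0.05. *Cebpd* is at −1.23, −1.44 and −1.13, with the widest interval in CD115-CDPs, and genes under the filter carry the words not tested.

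In BM pDCs, where expected counts give the depth of each value, *Cebpd* and *Cebpb* fell and *Cebpg* rose. *Cebpd* had 372 and 349 expected counts (8.96 and 8.51 FPKM) in the controls and 146.5 and 157 (3.53 and 3.76 FPKM) in the deficient libraries. The groups lay far apart compared with the spread inside each. By mean FPKM the controls were 2.40-fold higher, and the log2 difference was −1.13 (95% interval −1.42 to −0.84, SE 0.13, edgeR, adjusted p = 2.1e-04). A lower difference was found for 4.99% of the 12716 tested genes. DESeq2, limma on FPKM and other scaling factors gave −1.16 to −1.11 with the call kept each time. Leaving out single libraries gave −1.21 to −1.04. Each of those fits leaves 1 library in a group, so no call is drawn from them.

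*Cebpb* had 1058 and 922 expected counts in the controls and 751 and 652 in the deficient libraries, all of the latter under both controls. The difference was −0.38 (95% interval −0.62 to −0.14, SE 0.11, edgeR, adjusted p = 0.019), with the controls 1.42-fold higher by mean FPKM. It was not called without control library 1 (−0.28) or without control library 2 (−0.47), in fits that leave 1 control.

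*Cebpg* had 1236 and 1247 expected counts in the controls and 1469 and 1313 in the deficient libraries, both above the controls. The difference was 0.28 (95% interval 0.083 to 0.49, SE 0.088, edgeR, adjusted p = 0.029). This call was the least stable of the 3 in BM pDCs. It was lost with DESeq2 (0.29, adjusted p = 0.061) and with limma on FPKM (0.14, adjusted p = 0.26). It was also lost without control library 1 (0.27) or 2 (0.29), in fits that leave 1 control.

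*Cebpa* had 1743 and 1707 expected counts in the controls and 1373 and 1450 in the deficient libraries, which lay under both controls before scaling. With TMM scaling the difference was −0.17 (95% interval −0.37 to 0.039) and did not pass (edgeR, adjusted p = 0.16). It passed at −0.30 by limma on FPKM (adjusted p = 0.017), where the median of all genes was −0.15. *Gfi1* had 54 and 36 expected counts in the controls and 79 and 54 in the deficient libraries, which met at 54, and its difference of 0.68 (95% interval 0.0021 to 1.36) did not pass (edgeR, adjusted p = 0.094). *Cebpe* had 20 and 18 expected counts against 19 and 12, with overlapping groups and a difference of −0.17 (95% interval −1.08 to 0.74).

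All 6 members were tested in BM pDCs, with 2 lower, 1 higher and 3 without a call. Over all tested genes, 22.9% were called lower and 22.1% higher, around a median difference of −0.01. Both deficient libraries lay under both controls by FPKM for 3 of 6 members and 48.9% of all tested genes, and above them for 1 of 6 members and 27.2% of all tested genes. These shares are no basis for calling the family particular.

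**Figure D3:**
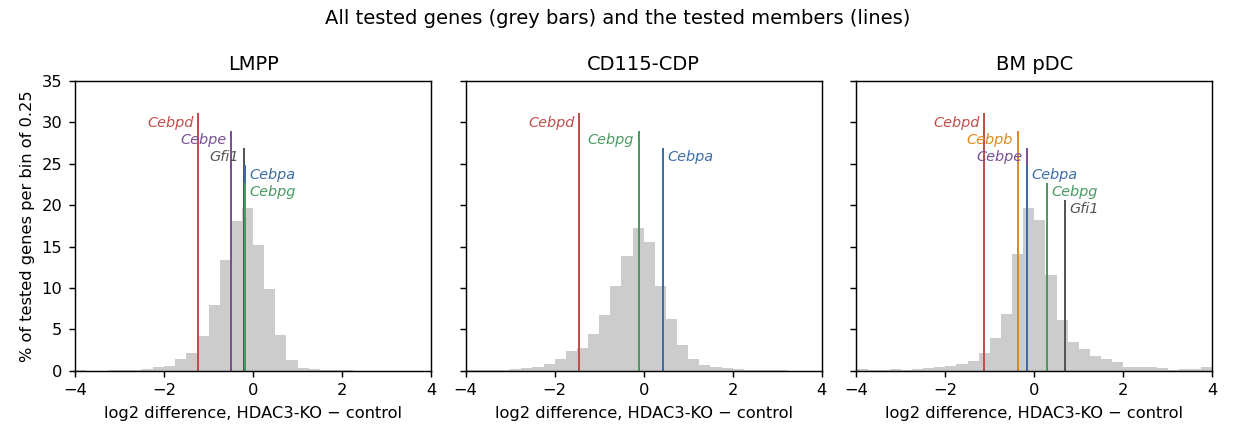
Distribution of the log2 difference between HDAC3-KO and control over all tested genes (grey bars, percent of genes per bin of 0.25, values beyond 4 placed in the end bins) with the tested members as coloured lines whose height has no meaning. *Cebpd* lies in the lower tail of each cell type, with 5.48%, 6.44% and 4.99% of genes below it in LMPPs, CD115-CDPs and BM pDCs.

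Markers of other cells also moved in BM pDCs, where 22.9% of all tested genes were called lower and 22.1% higher. The 6 pDC markers summed to 7927 and 8160 FPKM in the controls and to 4502 and 4314 FPKM in the deficient libraries, with 4 called lower and 0 higher. The sum of the 4 conventional dendritic cell (cDC) markers rose from 48.7 and 53.6 FPKM to 222 and 216 FPKM, with 3 called higher. Most of it was *Clec9a*, at 46.3 and 51.2 FPKM in controls and at 207.5 and 196 FPKM in deficient pDCs. *Xcr1*, at 0.85 and 0.77 FPKM against 0.80 and 0.74 FPKM, was not called (edgeR, adjusted p = 0.83). *Zbtb46*, a transcription factor of the cDC lineage, was at 1.46 and 1.23 FPKM in controls and at 8.87 and 11.97 FPKM in deficient pDCs (log2 difference 3.43, SE 0.23, edgeR, adjusted p = 4.5e-05). The neutrophil genes, in contrast, summed to 37.9 and 39.2 FPKM in controls and to 24.9 and 55.1 FPKM in deficient pDCs, with overlapping sums. Of these 8 genes 1 was called higher, *Lcn2*, at 1.25 and 1.66 FPKM in controls and 2.36 and 5.02 FPKM in deficient pDCs (log2 difference 1.48, SE 0.42, edgeR, adjusted p = 0.020), and 0 were called lower. The LMPP markers had 4 of 5 called higher, among them *Kit*, the stem cell factor receptor, at 1.77 and 1.54 FPKM in controls and 8.52 and 9.77 FPKM in deficient pDCs (2.60, SE 0.14, edgeR, adjusted p = 6.4e-06). Of the granulocyte-monocyte progenitor markers 3 of 5 were called higher, of the erythroid markers 2 of 5 were higher, and of the mast cell and basophil markers 3 of 5 were lower and 1 was higher. Of the monocyte markers 2 of 5 were called higher, and of the B cell markers 1 of 4 tested was lower. Of the T and NK cell markers only *Nkg7*, a granule protein of cytotoxic cells, was tested, and it was higher. The part of these transcripts in the C/EBP values was not tested.

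The antisense neighbour of *Cebpd* was examined because of the shared exon bases. *Spidr* was at 19.6 and 21.2 FPKM in control and 16.3 and 13.1 FPKM in deficient LMPPs (log2 difference −0.47, SE 0.19, limma, adjusted p = 0.083). In CD115-CDPs its difference was −0.44 (SE 0.34, limma, adjusted p = 0.70). In BM pDCs it was at 8.18 and 7.48 FPKM against 5.81 and 5.19 FPKM and fell (−0.35, SE 0.11, edgeR, adjusted p = 0.031). On the log2 scale the *Spidr* differences were smaller in size than those of *Cebpd* in each cell type. A log2 difference does not give the amount of shared reads, since *Spidr* and *Cebpd* were at unlike levels. In LMPPs *Cebpd* was at 4.11 and 3.33 FPKM in controls and at 1.38 and 1.20 FPKM in deficient libraries. The part of shared reads was not tested. *Tmem189*, the neighbour of *Cebpb*, had a difference of 0.092 in BM pDCs (SE 0.11, edgeR, adjusted p = 0.52). Its level was 1.84 to 3.19 FPKM in LMPPs, 3.47 to 4.10 FPKM in CD115-CDPs and 44.13 to 50.49 FPKM in BM pDCs. *Cebpb* was likewise highest in BM pDCs, and the part of shared reads in its level was not tested.

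The makeup of the family differed between cell types and genotypes. The FPKM of the 5 C/EBP genes summed to 17.5 and 12.4 in control LMPPs and to 98.2 and 93.2 in control BM pDCs. *Cebpd* took 23.5% and 26.8% of this sum in control and 12.2% and 12.6% in deficient LMPPs. In BM pDCs it took 9.13% and 9.13% in controls and 4.60% and 5.20% in deficient cells. In CD115-CDPs it ranged from 25.5% to 54.9% in controls and was at 27.7% and 7.06% in the deficient libraries, so the groups overlapped there. The share of *Cebpg* was 14.4% and 15.6% in control and 22.0% and 20.7% in deficient BM pDCs, and *Cebpa* and *Cebpb* together made up 72.3% to 75.5% of the sum there. No test was made on these shares, which are bound to sum to the same total.

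**Figure D4:**
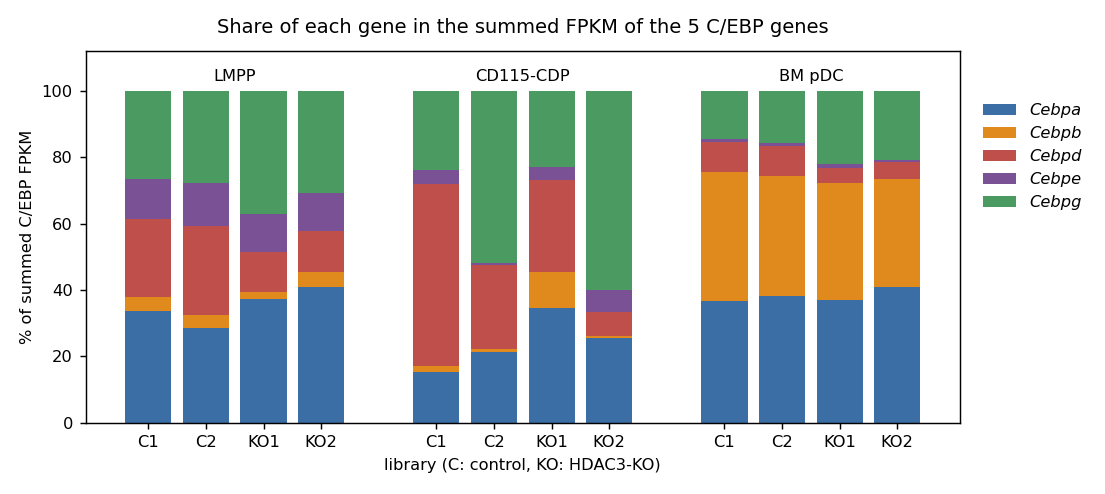
Share of each C/EBP gene in the summed FPKM of the 5 genes (vertical axis, percent, from 0) for each of the 12 libraries, where C is control and KO is HDAC3-KO. The red *Cebpd* segment is smaller in the KO bars of LMPPs and BM pDCs, and *Cebpb* takes 32.4% to 39.0% of the BM pDC bars and 0.696% to 11.0% of the others.

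The genes most like a member in their pattern over the 12 libraries were found by the root mean square difference of centred log2(FPKM + 0.5) values, among 9429 genes expressed in all 3 tables. For *Cebpd* they were *Kat6b* (0.38), *Kdm4b* (0.39) and *Selenoo* (0.40), where the median gene was at 1.08. *Kat6b*, which encodes a histone acetyltransferase, had log2 differences of −1.35, −1.20 and −0.49 in LMPPs, CD115-CDPs and BM pDCs. For *Cebpa* they were *Dyrk2*, *Irak1* and *Ppp2cb*, each at 0.28 with a median gene at 1.58. For *Cebpg* they were *Btbd1* and *Ctcf*, both at 0.22, and *Phtf1* at 0.24, with a median gene at 1.19. The other members were too low in some table to enter. The cell type differences, which include separate normalization of the tables, make up much of these patterns.

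Partners and modulators of C/EBP proteins numbered 12. In LMPPs 4 of 11 tested were called lower and 0 higher, beside 19.8% and 4.38% of all tested genes. The median was −0.59 against −0.23 for all genes. *Hlf*, a leucine zipper factor of stem and progenitor cells, was at 24.4 and 23.9 FPKM in controls and at 5.34 and 5.62 FPKM in deficient LMPPs (log2 difference −2.04, SE 0.21, limma, adjusted p = 3.1e-06). *Trib2*, a pseudokinase that promotes the breakdown of C/EBPα, fell by 2.35 on the log2 scale (SE 0.36, limma, adjusted p = 1.9e-04). *Ddit3*, which encodes the dominant negative partner CHOP, was lower in deficient LMPPs (−1.29, SE 0.20, limma, adjusted p = 2.0e-04) and higher in deficient BM pDCs (0.70, SE 0.11, edgeR, adjusted p = 0.0012). In BM pDCs 3 of 12 were called higher and 4 lower, beside 22.1% and 22.9% of all tested genes. The median was 0.06 against −0.01. *Trib1*, another pseudokinase acting on C/EBPα, was at 117 and 103 FPKM in controls and at 60.0 and 54.5 FPKM in deficient pDCs (−0.81, SE 0.10, edgeR, adjusted p = 3.5e-04).

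The 12 genes of the GFI1 repressor complex and its relatives had 3 called lower and 0 higher in LMPPs, beside 19.8% and 4.38% of all tested genes, with a median of −0.48 against −0.23 for all genes. *Gfi1b*, the paralog of *Gfi1* in the erythroid and megakaryocyte lineages, was at 27.4 and 33.4 FPKM in controls and at 2.94 and 4.90 FPKM in deficient LMPPs (log2 difference −2.83, SE 0.24, limma, adjusted p = 6.5e-07). *Hdac2*, a deacetylase of the complex, was called lower as well, close to the threshold (−0.61, SE 0.21, limma, adjusted p = 0.046). In BM pDCs 2 were higher and 4 lower, beside 22.1% and 22.9% of all tested genes, among them *Gse1* (1.15, SE 0.10, edgeR, adjusted p = 6.4e-05) and *Rcor3* (−0.74, SE 0.092, edgeR, adjusted p = 3.4e-04), both components of the corepressor.

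Of 16 genes known to be repressed by GFI1, 7 of 13 tested were called lower and 2 higher in LMPPs. The shares over all tested genes were 19.8% and 4.38%, and the list median was −1.01 against −0.23 for all genes. *Egr1*, an early growth response factor of the monocyte lineage, was at 188 and 239 FPKM in controls and at 19.1 and 10.2 FPKM in deficient LMPPs (log2 difference −3.87, SE 0.26, limma, adjusted p = 1.3e-05). *Cdkn1a*, the cell cycle inhibitor p21, rose by 1.47 on the log2 scale (SE 0.17, limma, adjusted p = 1.1e-05) in LMPPs and by 3.37 (SE 0.17, edgeR, adjusted p = 8.2e-06) in BM pDCs. In BM pDCs 5 of 16 were higher and 7 lower, beside 22.1% and 22.9% of all tested genes. The median was −0.15 against −0.01 for all genes, and *Egr1* was among the higher ones (1.88, SE 0.18, edgeR, adjusted p = 3.5e-04). The list therefore had calls in both directions in LMPPs and in BM pDCs. It shares 6 of its 16 genes, *Egr1* among them, with the factors acting with C/EBP proteins described below.

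The 24 C/EBP target genes hold 7 of the neutrophil markers, 4 of the granulocyte-monocyte progenitor markers and 2 of the monocyte markers. *Lyz2* is among the latter and is the monocyte marker already counted as lower in LMPPs. In LMPPs 9 of 22 tested were called lower and 2 higher, beside 19.8% and 4.38% of all tested genes. The median was −0.70 against −0.23 for all genes. *Lyz2*, lysozyme of granulocytes and monocytes, was at 541 and 504 FPKM in controls and at 236 and 209 FPKM in deficient LMPPs (log2 difference −1.23, SE 0.19, limma, adjusted p = 2.1e-04). *Ctsg*, a primary granule protease, rose from 369 and 481 FPKM to 1208 and 1453 FPKM (1.65, SE 0.22, limma, adjusted p = 4.1e-05). In BM pDCs 8 of 23 were higher and 1 lower, beside 22.1% and 22.9% of all tested genes. The median was 0.47 against −0.01 for all genes. *Itgam*, which encodes the CD11b surface marker that the pDC gate sorts against, was at 4.08 and 2.80 FPKM in controls and at 43.8 and 55.0 FPKM in deficient pDCs (3.98, SE 0.23, edgeR, adjusted p = 1.2e-04). *Il6ra*, the receptor of interleukin 6, rose by 1.45 on the log2 scale (SE 0.13, edgeR, adjusted p = 5.7e-05).

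Factors that act with C/EBP proteins on myeloid genes numbered 16. In LMPPs 6 of 13 tested were called lower and 1 higher, beside 19.8% and 4.38% of all tested genes. The median was −0.51 against −0.23 for all genes. *Klf4*, a monocyte factor, was at 3.48 and 3.67 FPKM in controls and at 0.51 and 0.38 FPKM in deficient LMPPs (log2 difference −2.11, SE 0.31, limma, adjusted p = 1.2e-04). In BM pDCs 7 of 16 were higher and 3 lower, beside 22.1% and 22.9% of all tested genes. The median was 0.42 against −0.01 for all genes. *Runx1*, which works beside C/EBPα at myeloid promoters, rose there by 0.90 on the log2 scale (SE 0.12, edgeR, adjusted p = 4.2e-04), and *Myb*, a factor of immature cells, fell by 0.88 (SE 0.091, edgeR, adjusted p = 1.4e-04). In CD115-CDPs 0 genes of these 5 lists were called, and the medians were −0.18 for partners, −0.56 for the GFI1 complex, −0.92 for genes repressed by GFI1, −0.37 for C/EBP targets and −0.34 for the cofactors, against −0.16 for all genes.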

How the data were processed

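RNA-seq of sorted LMPPs, CD115-CDPs and BM pDCs from tamoxifen-treated Hdac3 fl/fl controls and Hdac3 fl/fl Rosa26-CreERT2 mice was analysed, 2 libraries per group and 12 in all, with groups taken from the sample labels. LMPPs and CD115-CDPs were lysed in a low-input buffer and BM pDCs in Trizol. Bowtie2, RSEM and mm10 appear in the submitters' processing notes, without roles or versions. The authors deposited FPKM per gene and library for LMPPs and CD115-CDPs. For BM pDCs the authors deposited expected counts, FPKM and TPM, of which TPM and the authors' mean columns were not used. Rows were given symbols by NCBI Gene ID from RefSeq. For CD115-CDPs, deposited without symbols, the IDs of the members were checked against the pDC table.

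Genes reaching 1 FPKM in 2 or more of 4 libraries were compared as log2(FPKM + 0.5) with limma 3.58.1 (trend and robust moderation) in R 4.3.3. A difference on this scale understates the change of low genes. Rounded expected counts of BM pDCs were compared with edgeR 4.0.16 (filterByExpr, TMM, robust quasi-likelihood test). P-values were two-sided and Benjamini-Hochberg adjusted over all tested genes of a cell type, and genes were called at 0.05. Means ± SD refer to FPKM. No test was made across the tables, and differences were not compared between cell types. DESeq2 1.42.0, other scalings, pseudocounts and filters and the omission of each library served as alternatives. The procedure was tested on simulated data.

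Expected counts summed to 1.81e+07 to 1.85e+07 per BM pDC library. For the other tables the value of a single read was estimated from the low FPKM of genes with 1 transcript, which put LMPP libraries at 1.82e+07 to 1.90e+07 reads and CD115-CDP libraries at 1.22e+07 to 1.46e+07. For BM pDCs the same estimate was 3.70% to 8.39% above the summed counts, and for the second deficient CD115-CDP library it rests on 7 genes.

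The named genes are the 6 members, *Hdac3*, up to 3 genes with the smallest adjusted p of each of 15 lists and cell type, and the 3 genes most like each member. *Spidr*, *Tmem189* and *Csf1r* in CD115-CDPs were added after their values were seen. *Flt3* and *Kit* in CD115-CDPs are the markers planned for that cell type. The members and lists were chosen with earlier results of these data known. Libraries were counted as replicates as labelled. The sequence of *Cebpd* is not reported here. Equal replicate numbers carry no stated pairing.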

Additional observations from a re-analysis of the deposited data

Results flagged for a closer look

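*Cebpa* drew attention because its libraries moved in opposite directions in the cell types. In CD115-CDPs both HDAC3-deficient libraries lay above both controls, as for 15.2% of all tested genes, with a log2 difference of 0.43. In BM pDCs both lay under both controls by FPKM, as for 48.9% of all tested genes. The BM pDC difference was −0.17 by edgeR with TMM scaling. By limma on FPKM it was −0.30, where the median of all genes was −0.15. Neither the 0.43 nor the −0.17 passed its test, whereas the −0.30 did (limma, adjusted p = 0.017). The difference between the cell types was not tested because the tables were normalized separately. The progenitor difference rests on a pair of controls that were 0.01 FPKM apart.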

How the results depend on the processing

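Of 166 alternative values for single members, 138 kept their direction and side of the threshold, and those of *Cebpd* in BM pDCs all did. In LMPPs, quantile normalization turned the differences of *Cebpa* (0.27), *Cebpe* (0.016), *Cebpg* (0.29) and *Gfi1* (0.29) positive, median-ratio scaling those of *Cebpa* (0.053) and *Cebpg* (0.050), while omission of single libraries moved *Cebpa* between −0.50 and 0.16 and *Cebpg* between −0.40 and 0.059. In CD115-CDPs the difference of *Cebpg* turned positive under quantile normalization (0.12) and median-ratio scaling (0.0097), and it ranged from −1.07 to 0.85 without single libraries. In BM pDCs *Cebpe* ranged from −0.50 to 0.098 without single libraries, and without deficient library 2 *Cebpa* (−0.23) and *Gfi1* (0.91) gained a call. The cause of these changes was not tested. Quantile normalization left 0 members called in LMPPs. Without single libraries, members called ranged from 0 to 1 in LMPPs, 0 to 2 in CD115-CDPs and 1 to 5 in BM pDCs. The calls over all genes, 2692 in LMPPs, 0 in CD115-CDPs and 5733 in BM pDCs, then ranged from 878 to 4170, 1 to 5183 and 2717 to 6979, the remaining library of a group being assumed to vary like the others. In LMPPs there were 1423 calls with no filter and 1769 (850 higher, 919 lower) under quantile normalization, against 488 higher and 2204 lower. Median-ratio scaling gave 978 higher and 1111 lower there. The balance of directions in LMPPs thus depended on the scaling, and the counts in the gene lists were not repeated under either scaling. Quantile normalization gave 2 calls in CD115-CDPs.

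Equal replicate numbers did not pair the libraries by any statement, and the correlation of their deviations was −0.10, 0.24 and −0.24 in LMPPs, CD115-CDPs and BM pDCs. With a replicate block there were 2588, 334 and 5129 calls, and among members only *Cebpg* in BM pDCs lost its call (0.28, edgeR, adjusted p = 0.064). The crossed block, added after seeing the data, gave 3506 calls in LMPPs and 5876 in BM pDCs. Tests without robust moderation, also added later, gave 2576, 0 and 5611 calls. In CD115-CDPs *Cebpb*, *Cebpe* and *Gfi1* rest on about 0 to 60 reads per library by the estimate above, which limits their precision, and no difference was detectable.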
